A study of Mus musculus with 9 samples.

Results

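The neurotrophin receptor gene Ntrk2, the neuregulin genes Nrg4 and Nrg1, and the genes of the 4 ErbB receptors, Egfr, Erbb2, Erbb3 and Erbb4, were followed in mouse liver. They are 7 of 19938 genes measured on Affymetrix arrays, each read from its single-gene probe set of highest mean, and each of them had 1 such probe set. Ntrk2 and Nrg4 were chosen by measured values, the difference of their log2 level between Clock mutant and wild-type liver on these arrays. The other 5 genes were added by family, as ligand or receptors of the same signalling system. For Ntrk2 and Nrg4 the values of mutant and of rescue against wild type are therefore given as a description without a p-value.

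The study measured total liver RNA of 9 mice, 1 array per mouse, in 3 groups of 3. The wild-type mice were C57BL/6J. The mutants carried Clock-D19, a splice mutation of the circadian activator gene Clock whose protein activates transcription poorly. The rescue mice were Clock-D19 mutants given wild-type Clock on a pLIVE plasmid, 35 µg by hydrodynamic injection into the tail vein at week 10, a route known to deliver DNA mainly to hepatocytes. All mice were kept under a 12 h:12 h light:dark cycle, ate a diet with 45% fat for 5 weeks from 10 weeks of age, and were killed at zeitgeber time 10, which is 10 h after lights on. The mutation is carried in every cell of the animal, whereas the plasmid is not, and a control injection of the other 2 groups is not described in the labels. The comparisons address what the mutation changes in liver and what differs after Clock is supplied there.

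Values are RMA log2 levels, so a difference of 1 is a doubling of the signal. Precision is limited by the number of arrays. The median over genes was 6.12 to 6.27 on the 9 arrays, and the medians of 1015 olfactory receptor genes, which liver is not known to use, were 4.15 to 4.33 and serve as a gauge of dim signal. The hepatocyte marker Alb had a mean of 13.09, and 12 of 12 hepatocyte markers lay outside the dimmest 40% of genes. Clock itself read 9.24 to 9.97 in wild type, 9.89 to 10.88 in the mutants and 9.41 to 10.33 in rescue, and its probe set cannot separate mutant from plasmid transcript, so it does not check the labels. None of the 7 genes lies on the chromosome of Clock (0 of 7).

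ErbB receptors are tyrosine kinases that pair on binding a ligand of the EGF family. EGFR binds EGF and its relatives, ERBB3 and ERBB4 bind neuregulins, and ERBB2 has no known ligand and acts as the preferred partner of the others; ERBB3 has little kinase activity and signals through its partners. NRG4 is a neuregulin that binds ERBB4, is made in brown fat and other tissues, and is known to restrain lipid synthesis in liver. Ntrk2 encodes TrkB, the receptor of BDNF and neurotrophin-4, studied mainly in neurons. EGFR is abundant in hepatocytes and takes part in liver regeneration.

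The regulatory sequence just before the transcription start was read for the 3 genes with the largest group differences, because CLOCK and BMAL1 act through E-boxes near such starts. RefSeq promoter windows (GRCm38.p6, 250 bases before to 50 after the start) matched 5 of the 7 genes, Ntrk2, Nrg4, Egfr, Erbb2 and Erbb4, by symbol. Searched on both strands were the E-box CACGTG, the related CACGTT, the D-box TTATGNAA and the nuclear receptor half-site AGGTCA, which is the core of the element that REV-ERB and ROR bind. Below are the 250 bases before the start, 5′ to 3′ on the gene's strand, of Nrg4 (chr9:55283626-55283875, minus strand), Ntrk2 (chr13:58806319-58806568, plus strand) and Erbb4 (chr1:69108060-69108309, minus strand), with matches in capitals.
Nrg4: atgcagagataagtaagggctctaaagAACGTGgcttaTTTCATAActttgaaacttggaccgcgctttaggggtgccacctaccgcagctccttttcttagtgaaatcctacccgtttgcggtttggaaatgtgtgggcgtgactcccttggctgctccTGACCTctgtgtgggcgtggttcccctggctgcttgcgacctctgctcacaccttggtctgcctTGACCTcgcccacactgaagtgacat
Ntrk2: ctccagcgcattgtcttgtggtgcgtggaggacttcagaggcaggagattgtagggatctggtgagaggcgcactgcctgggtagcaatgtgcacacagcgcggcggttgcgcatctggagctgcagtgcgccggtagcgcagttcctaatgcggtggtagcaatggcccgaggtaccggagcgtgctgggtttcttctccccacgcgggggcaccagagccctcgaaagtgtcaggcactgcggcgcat
Erbb4: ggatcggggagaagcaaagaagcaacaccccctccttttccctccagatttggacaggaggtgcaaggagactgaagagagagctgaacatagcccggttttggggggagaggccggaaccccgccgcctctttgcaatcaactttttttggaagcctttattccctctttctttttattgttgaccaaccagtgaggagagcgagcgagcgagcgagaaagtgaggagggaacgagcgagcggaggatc

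The Nrg4 window held 5 matches, and the windows of Ntrk2, Erbb4, Egfr and Erbb2 held 0 of these letters. In Nrg4, CACGTT stood on the reverse strand at -223 to -218, followed by a D-box match on the reverse strand at -212 to -205, and AGGTCA stood on the reverse strand at -90 to -85 and at -26 to -21, counted from the start. A further CACGTT lay after the start at 16 to 21, in tccgatttttgaCACGTTgtaaagttcgag (chr9:55283593-55283622, minus strand). No 2 matches overlapped. Of 32851 RefSeq windows of the same length, 7.15% held CACGTG, 4.68% CACGTT, 3.38% the D-box letters and 16.3% AGGTCA. A match is a string of letters and no measured binding site, and its absence says nothing about a factor outside these windows.

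Nrg4, the ligand, was low in both groups that carry the mutation. Its log2 level was 8.44, 7.84 and 8.16 in the wild-type mice, 6.15, 6.07 and 6.04 in the mutants and 6.64, 6.50 and 6.43 in the rescue mice. The 3 groups did not overlap, and their order was wild type, rescue, mutant. The mutant mean lay -2.06 ± 0.13 (SE, n = 3 per group) from wild type, a 4.16-fold lower signal. Rescue was -1.62 ± 0.13 from wild type, given without a p-value because the wild-type arrays that chose the gene are used again. It was 0.44 ± 0.13 above mutant, which did not pass (limma adjusted p = 0.0817) although every rescue value exceeded every mutant value, and the mutant arrays too took part in the choice. On the line from the mutant mean to the wild-type mean, the rescue mice stood at 26.8%, 20.1% and 16.8% of the way.

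Ntrk2, the neurotrophin receptor, showed the opposite order with the mutants highest. Its log2 level was 3.10, 2.77 and 2.66 in the wild-type mice, 5.65, 5.40 and 5.74 in the mutants and 5.05, 4.96 and 5.55 in the rescue mice. All 3 wild-type values lay below the olfactory receptor median of their own array, and all 6 values of the other groups lay above it. The wild-type level therefore need not be above background. The measured difference between mutant and wild type was 2.75 ± 0.16 on the log2 scale, and no fold is given because the true one may be larger.

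In the rescue mice every Ntrk2 value lay above every wild-type value. The measured difference was 2.34 ± 0.16, against the same dim wild-type arrays that took part in choosing the gene, so it too is a description without a p-value. Rescue and mutant values overlapped, since rescue replicate 3 at 5.55 exceeded mutant replicate 2 at 5.40, and the difference of -0.41 ± 0.16 did not pass (limma adjusted p = 0.158). The mutant arrays of this comparison took part in choosing Ntrk2 too. Ntrk2 is known to encode a full-length and a truncated receptor, which 1 probe set cannot tell apart.

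**Figure D1:**
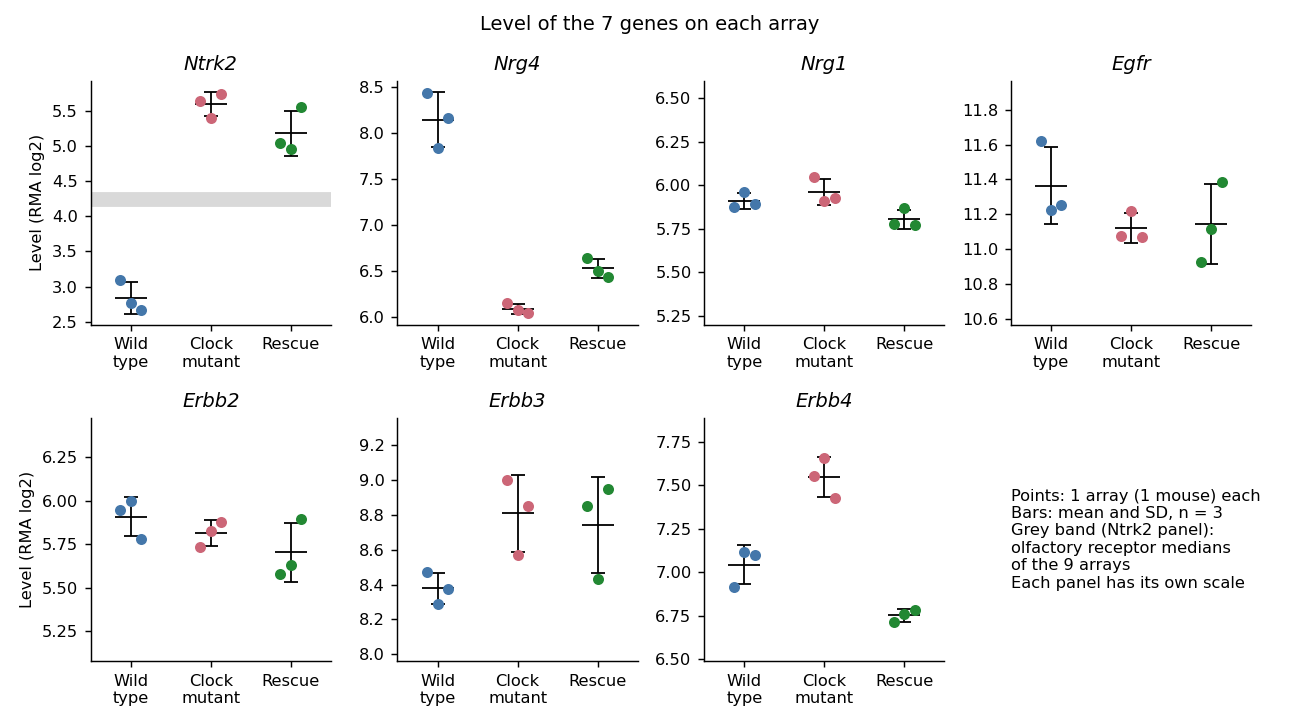
RMA log2 level of each of the 7 genes (vertical axes, each with its own range) on the 9 arrays, grouped as wild type, Clock mutant and rescue; points are single mice, bars the mean and SD of 3, and the grey band in the Ntrk2 panel the range of olfactory receptor medians, 4.15 to 4.33. Wild type stands apart from the other 2 groups in Ntrk2 and Nrg4, whereas in Erbb4 the mutants stand above both other groups.

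Erbb4, the receptor of NRG4, was higher in the mutants and lower in the rescue mice. Its log2 level was 6.91, 7.12 and 7.10 in wild type, 7.55, 7.66 and 7.43 in the mutants and 6.71, 6.76 and 6.78 in rescue. The 3 groups did not overlap, with rescue lowest and mutant highest. Erbb4 rose by 0.50 ± 0.10 in mutant against wild type (1.42-fold, limma adjusted p = 0.00507) and fell by 0.79 ± 0.10 in rescue against mutant (1.73-fold, limma adjusted p = 0.00149, rank 25 among all falls of that comparison). Rescue was -0.29 ± 0.10 from wild type, which did not pass (limma adjusted p = 0.195). The rescue mice stood at 165%, 157% and 152% of the way from the mutant to the wild-type mean, past wild type.

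Erbb3, the other neuregulin receptor, was at 8.47, 8.29 and 8.38 in wild type, 9.003, 8.57 and 8.85 in the mutants and 8.85, 8.43 and 8.95 in rescue. Every mutant value exceeded every wild-type value, but mutant replicate 2 and rescue replicate 2 lay close to wild type. The mutant difference of 0.43 ± 0.14 did not pass (limma adjusted p = 0.0564). It passed in 8 of 18 alternative settings, among them without mutant replicate 2 (0.55, limma adjusted p = 0.0302) and without rescue replicate 2 (0.43, limma adjusted p = 0.0283). Rescue was 0.37 ± 0.14 from wild type (limma adjusted p = 0.246) and -0.06 ± 0.14 from mutant (limma adjusted p = 0.828), and rescue values overlapped both groups.

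Egfr, the EGF receptor, was at 11.62, 11.23 and 11.25 in wild type, 11.07, 11.22 and 11.07 in the mutants and 10.93, 11.11 and 11.39 in rescue. Wild type and mutant were separated by 0.0064 at their closest, and the rescue mice spread over both. The difference was -0.24 ± 0.14 for mutant (interval -0.53 to 0.05, limma adjusted p = 0.237) and -0.22 ± 0.14 for rescue against wild type (interval -0.51 to 0.07, limma adjusted p = 0.521). Rescue against mutant gave 0.02 ± 0.14 (limma adjusted p = 0.944).

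Erbb2, the receptor without a ligand, was at 5.95, 6.00 and 5.78 in wild type, 5.73, 5.82 and 5.88 in the mutants and 5.58, 5.63 and 5.90 in rescue, and the groups overlapped. Its probe set lay just under the limit of the dimmest 40% of genes (mean 5.81), and 1 further probe set shared with another gene was not used. The mutant difference was -0.10 ± 0.11 (interval -0.34 to 0.14, limma adjusted p = 0.592). Rescue was -0.20 ± 0.11 from wild type (limma adjusted p = 0.457) and -0.11 ± 0.11 from mutant (limma adjusted p = 0.610).

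Nrg1, the ligand of ERBB3 and ERBB4 that is best known from nerve and heart, was at 5.88, 5.96 and 5.89 in wild type, 6.05, 5.91 and 5.93 in the mutants and 5.78, 5.87 and 5.77 in rescue. The rescue values lay below those of both other groups, but by little. Rescue was -0.16 ± 0.10 from mutant (interval -0.36 to 0.05, limma adjusted p = 0.372) and -0.11 ± 0.10 from wild type (limma adjusted p = 0.714). The mutant difference was 0.05 ± 0.10 (interval -0.16 to 0.26, limma adjusted p = 0.748), and its sign turned with 3 other scalings.

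**Figure D2:**
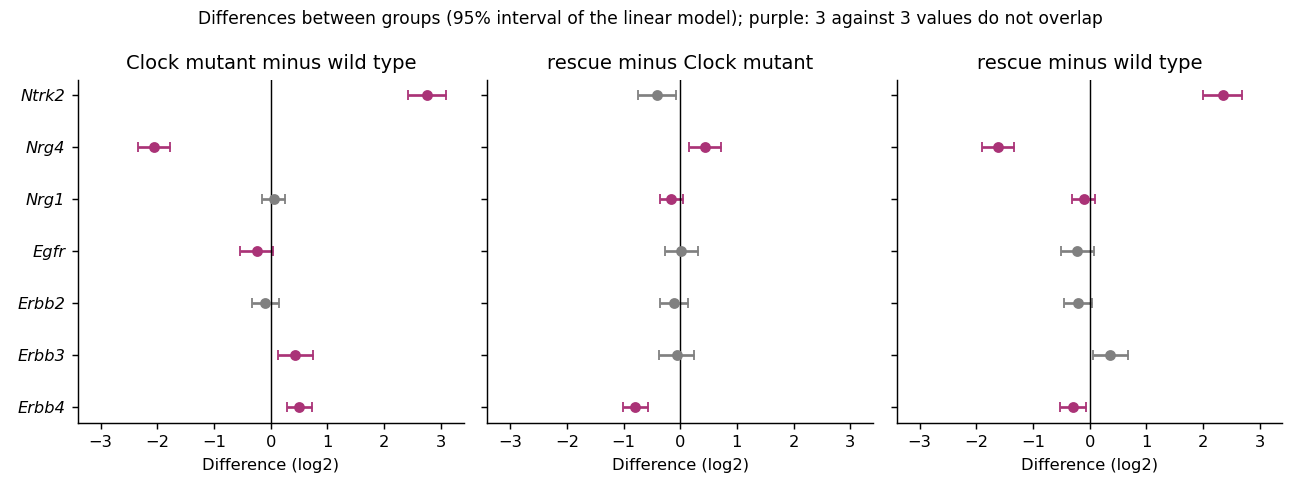
Differences of the 7 genes on the log2 scale (horizontal axes) for the 3 comparisons, with the 95% interval of the linear model over 9 arrays; purple marks genes whose 3 against 3 values do not overlap. In mutant against wild type Ntrk2 is at 2.75 and Nrg4 at -2.06, and in rescue against mutant Erbb4 is farthest from 0 at -0.79. For Ntrk2 and Nrg4 the intervals and colours against wild type describe only and test nothing, since wild-type and mutant arrays chose these genes. In rescue against mutant, those of Ntrk2 and Nrg4 rest on the same mutant arrays and carry the same limit.

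Of the 5 genes chosen by family, 1 (Erbb4) passed in mutant against wild type, where 15.4% of all genes passed (6.37% higher and 9.02% lower). In rescue against mutant 1 of the 7 genes passed (Erbb4), against 3.81% of all genes (2.61% higher and 1.2% lower). In rescue against wild type 0 of the 5 passed with limma (2 at an unadjusted p under 0.05, Erbb3 and Erbb4), where 2.28% of all genes passed (0.928% higher and 1.35% lower). Values of 3 against 3 mice did not overlap for 5 of 7 genes in the first comparison, 3 in the second and 4 in the third, where the shares over all genes were 35.7%, 25.7% and 19.5%. In mutant against wild type 3 of the 5 were higher (20.3% of all genes) and 2 lower (15.4%), in rescue against mutant 1 higher (11.8%) and 2 lower (14%), and in rescue against wild type 1 higher (8.95%) and 3 lower (10.5%). These counts include Ntrk2 and Nrg4, and nothing is read from them for these 2, which wild-type and mutant arrays chose. The comparisons share arrays in pairs and are not independent. Both calls of Erbb4 were kept in 18 of 18 alternative settings.

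Genes with the most similar pattern were found by Pearson's r over the 9 arrays, among genes outside the dimmest 40%. These arrays form 3 groups, so r mostly reflects group means where they differ, and it is given with its value after the group means were removed. For Ntrk2 these were Dapk1, a death-associated kinase gene (r = 0.980, and 0.501 with group means removed), Echdc3 (0.979 and 0.410) and Dot1l, a histone H3 methyltransferase gene (0.977 and 0.130). For Nrg4 they were Pigp, of GPI anchor synthesis (0.988 and 0.655), Map2k6, a kinase gene upstream of p38 (0.985 and 0.726), and Tut4, a uridylyl transferase gene (0.984 and 0.504). For Erbb4 they were Kxd1 (0.976 and 0.506), the serpin gene Serpina12 (0.965 and 0.703), whose mean was 7.13 in wild type, 8.04 in mutant and 6.91 in rescue, and Gid8 (0.959 and 0.467).

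For the other 4 genes, whose groups differ less, r was 0.675 or more with group means removed. These genes were picked by r on the same arrays, so the second value does not test the likeness. Erbb3 was closest to Igsf5 (0.959, and 0.962 with group means removed), the succinate dehydrogenase gene Sdha (0.957 and 0.909) and Napa (0.956 and 0.934). Egfr was closest to Ldb1 (0.929 and 0.913), Cd274 (0.924 and 0.896) and Smad9 (0.915 and 0.965). Erbb2 was closest to Stk35 (0.919 and 0.879), Marchf8 (0.912 and 0.903) and Cln6 (0.902 and 0.831), and Nrg1 to Rps21 (0.899 and 0.751), Aph1a (0.895 and 0.675) and Nupr1l (0.891 and 0.778).

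Of the other ligand genes and the neurotrophin genes none passed in the 3 comparisons as fitted, where 15.4%, 3.81% and 2.28% of all genes did. Of 8 measured EGF family ligand genes (Egf, Tgfa, Hbegf, Ereg, Btc, Epgn, Nrg2 and Nrg3) 0 passed in any of the 3 comparisons with limma, and 4 of the 8 lay in the dimmest 40% of genes. Their median difference between mutant and wild type was 0.08, against 0.07 over all genes. Of 9 neurotrophin and neurotrophin receptor genes 0 passed as well, and 6 of the 9 were that dim. Bdnf, which encodes the main ligand of TrkB, had means of 5.64, 5.57 and 5.48 in wild type, mutant and rescue. At an unadjusted p under 0.05 the counts were 1, 1 and 0 of 8 and 1, 1 and 0 of 9 for mutant against wild type and for rescue against mutant and against wild type; the genes were Btc and Sort1. In rescue against mutant 1 EGF family ligand gene passed without the dimmest 40% of genes, and 1 neurotrophin list gene passed in 6 of 18 alternative settings, 1 of them without wild-type replicate 1.

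In the list of ligand processing and shedding, which includes a sheddase inhibitor gene and gamma-secretase genes, calls went in both directions. Of 12 measured genes 3 fell and 1 rose in the mutants (33.3%, against 15.4% of all genes), with a median difference of 0.00061, against 0.07. Of the 12, 9 lay outside the dimmest 40% of genes, whereas the 15.4% counts dim genes too. With the dimmest 40% left out 3369 of the fewer genes kept passed, against 3068 of all 19938, and 3 of the list still fell and 1 rose. The share of genes passing is higher on that base than 15.4%, so no excess of the list is read from its 33.3%. Timp3, an inhibitor of the sheddase ADAM17, fell by 1.07 ± 0.10 (limma adjusted p = 2.62e-05), and Psen2, a subunit gene of gamma-secretase, which can cut ERBB4, rose by 0.97 ± 0.12 (adjusted p = 1.84e-04). The sheddase gene Adam10 fell by 0.58 ± 0.11, and Adam17 by 0.44 ± 0.12, although the call of Adam17 was lost when wild-type replicate 1 or 3 or mutant replicate 2 was left out. Against mutant, Timp3 rose by 0.50 ± 0.10 in rescue and Psen2 fell by 0.51 ± 0.12. Timp3 was not called there without mutant replicate 1 or 3 or rescue replicate 1 or 3, nor Psen2 without mutant replicate 1 or 2 or rescue replicate 2 or 3. Timp3 also fell by 0.57 ± 0.10 in rescue against wild type (limma adjusted p = 0.00851).

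Among genes that carry the signal inside the cell, falls were more numerous than rises in the mutants. Of 30 measured adaptor and effector genes 8 fell and 2 rose (33.3%, against 15.4%), with a median of -0.02, and 5 fell without wild-type replicate 3. Calls over all genes leaned the same way, with 9.02% lower and 6.37% higher. Of the 30, 27 lay outside the dimmest 40% of genes, so the share of all genes is not a like base. With the dimmest 40% left out 11 fell and 3 rose, where 3369 of the fewer genes kept passed, against 3068 of all 19938. That share of genes is higher than 15.4%, and no excess of the list is read from its 33.3%. Erbin, whose protein binds ERBB2, fell by 0.81 ± 0.10, the Ras exchange factor genes Sos2 and Sos1 by 0.81 ± 0.12 and 0.52 ± 0.09, and the PI3-kinase gene Pik3cb by 0.61 ± 0.10 (limma adjusted p at most 0.00209 for each). The 2 that rose in the fit of all genes, named after their values were seen, were the adaptor genes Grb7 (0.74 ± 0.13) and Grb2 (0.41 ± 0.10). In rescue against mutant Sos2, Sos1, Braf and Erbin rose, by 0.56 ± 0.12, 0.40 ± 0.09, 0.41 ± 0.10 and 0.41 ± 0.10. These calls held in 14, 11, 7 and 8 of 18 alternative settings; Sos1 and Braf lost theirs without any 1 of the 6 mutant and rescue arrays, Erbin without any of these but mutant replicate 2, and Sos2 without mutant replicate 2 or 3 or rescue replicate 1 or 3. Braf lost it also without wild-type replicate 1 or 2, with quantile normalization and with the span trend removed, and Erbin without any 1 wild-type array and with the span trend removed. In rescue against wild type Grb7 rose by 0.62 ± 0.13 and the docking protein gene Gab1 fell by 0.47 ± 0.10. Grb7 was not called when wild-type replicate 2 or 3 or rescue replicate 2 or 3 was left out, nor Gab1 when wild-type replicate 1 or 3 or any 1 rescue array was.

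Negative regulators of the ErbB and Ras pathway fell in part. Of 22 measured genes 6 fell in the mutants and 0 rose (27.3%, against 15.4% of all genes, 9.02% lower and 6.37% higher), with a median of -0.22, against 0.07. All 22 lay outside the dimmest 40% of genes, whereas the 15.4% counts dim genes too, so the shares are not on a like base. With the dimmest 40% left out 3369 of the fewer genes kept passed, against 3068 of all 19938, and the list stayed at 6 lower and 0 higher. On that base the share of genes passing is higher than 15.4%, and no excess of the list is read from its 27.3%. Rasa1, a Ras GTPase activating protein gene, fell by 0.77 ± 0.10, Errfi1, which encodes the EGFR inhibitor MIG6, by 0.69 ± 0.11, Spred1, an inhibitor of ERK signalling, by 0.59 ± 0.12, and Socs4 by 0.59 ± 0.13 (limma adjusted p at most 0.00641 for each). Against mutant, Ptprj, Nf1 and Rasa1 rose in rescue by 0.45 ± 0.11, 0.41 ± 0.10 and 0.39 ± 0.10, calls that held in 11, 8 and 7 of 18 alternative settings and were lost without any 1 mutant or rescue array, and for Nf1 and Rasa1 also without wild-type replicate 1 or 2. In this list 0 of 22 passed with limma in rescue against wild type (3 at an unadjusted p under 0.05). Over the 7 pathway lists, 10 genes passed in rescue against mutant, but the number was 0 without rescue replicate 3, 1 without mutant replicate 1, 2 without mutant replicate 2 or 3 or rescue replicate 1, 5 without rescue replicate 2 and 6 without wild-type replicate 2.

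Early and feedback targets of ERK, the kinase at the end of this pathway, passed at about the share of all genes. Of 21 measured genes 3 fell in the mutants and 0 rose (14.3%, against 15.4% of all genes), and 1 fell without mutant replicate 1. Myc fell by 1.41 ± 0.40, Etv1 by 0.80 ± 0.16 and Etv5 by 0.58 ± 0.14 (limma adjusted p = 0.0273, 0.00411 and 0.0121). The call of Myc was lost with a trended and robust prior and when wild-type replicate 2 or 3 or mutant replicate 1 or 2 was left out. Etv5 was not called without wild-type replicate 1 or mutant replicate 1, or as the mean of its probe sets. In both rescue comparisons 0 of 21 passed with limma, against 6 and 4 at an unadjusted p under 0.05.

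Most of the called genes among the other receptor tyrosine kinases, the class of TrkB and the ErbB receptors, were lower in the mutants. Of 50 measured genes 10 fell and 1 rose (22%, against 15.4%), and 7 fell and 0 rose without wild-type replicate 1. Calls over all genes also leaned lower, with 9.02% lower and 6.37% higher. The median over the list was 0.10, against 0.07 over all genes, and at an unadjusted p under 0.05 there were 9 higher and 11 lower. The called genes included the hepatocyte growth factor receptor gene Met at -0.84 ± 0.10, the VEGF receptor gene Kdr at -0.86 ± 0.11, the phagocyte receptor gene Mertk at -0.65 ± 0.12 and the angiopoietin receptor gene Tek at -0.59 ± 0.11 (limma adjusted p at most 0.00283). The 1 that rose, named after its value was seen, was Alk (0.35 ± 0.10). Kdr lies 3 tested genes from Clock, so an effect of sequence linked to Clock cannot be told apart from one of the mutation. Of the 10 that fell, Kdr, Flt1, Flt4 and Tek are known from endothelium and Csf1r and Mertk from macrophages (Flt1, Flt4 and Csf1r named after their values were seen). Markers of both cell types fell in part in the same livers, 6 of 12 and 8 of 12, against 9.02% of all genes. That share counts dim genes and is not a like base, since 12 of 12 and 11 of 12 of the markers lay outside the dimmest 40%. In the same list Tie1, of endothelium, was at 0.03 ± 0.12 (limma adjusted p = 0.873). Axl, of macrophages, was at -0.07 ± 0.11 (limma adjusted p = 0.688). The endothelial marker Egfl7 was at 0.34 ± 0.11 (limma adjusted p = 0.0581). The part of endothelial cells and macrophages in the receptor values was not tested. In rescue Kdr rose by 0.45 ± 0.11 against mutant, a call lost without mutant replicate 1 or 2 or rescue replicate 1 or 3 and on the 6 arrays compared. Met was -0.52 ± 0.10 from wild type (limma adjusted p = 0.0111), lost without wild-type replicate 1 or 3 or rescue replicate 2.

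**Figure D3:**
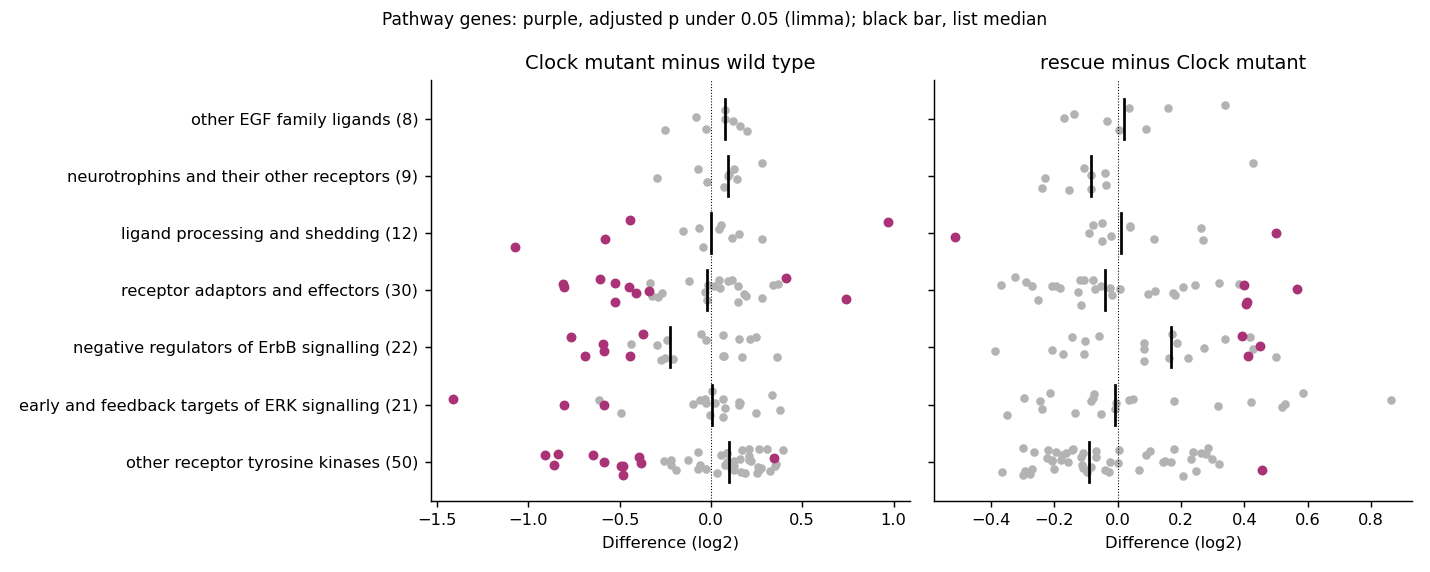
Difference on the log2 scale (horizontal axes) of every measured gene of the 7 pathway lists (rows, with the number of genes), for mutant against wild type and rescue against mutant; purple points passed limma at an adjusted p under 0.05 and black bars are list medians. In mutant against wild type purple points lie mostly on the negative side, as in the negative regulators with 6 lower and 0 higher. Over all genes 9.02% were called lower there and 6.37% higher.

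Markers of Kupffer cells, endothelium and stellate cells were lower in part in the mutant livers, in which Ntrk2 and Erbb4 were higher and Nrg4 lower than in wild type. Among all genes, dim ones included, 9.02% were called lower in that comparison. Of the markers 11 of 12, 12 of 12 and 10 of 11 lay outside the dimmest 40% of genes, so this share is not a like base. In bulk tissue, fewer cells of a type and less RNA per cell cannot be told apart. The summed log2 level of 12 Kupffer cell and macrophage markers was 89.5 to 95.4 in wild type, 82.0 to 83.2 in the mutants and 83.6 to 87.3 in rescue, and 8 of the 12 fell in the mutants, among them Vsig4 (-2.14 ± 0.13) and Cd163 (-0.94 ± 0.12). The sum of 12 endothelial markers was 94.2 to 95.7, 88.9 to 89.8 and 91.3 to 94.4 in the same order, with 6 of 12 lower in the mutants, among them Mrc1 (-0.96 ± 0.13) and Fcgr2b (-0.84 ± 0.10). At an unadjusted p under 0.05, 9 endothelial markers were lower and 1 (Egfl7) was higher. The sum of 11 stellate cell and fibroblast markers was 81.9 to 84.3, 79.8 to 80.9 and 82.2 to 82.7, with 4 of 11 lower, among them Rgs5 (-0.86 ± 0.12) and Lrat (-0.81 ± 0.15). In rescue against mutant 1 Kupffer cell marker, 3 endothelial and 3 stellate cell markers rose, of 12, 12 and 11, where 2.61% of all genes did. The endothelial count was 0 without mutant replicate 1 or rescue replicate 1 or 3, 1 without mutant replicate 2 or 3 and 2 without wild-type replicate 2 or 3, and the stellate cell count was 0 without mutant replicate 1 or 2 or rescue replicate 1 or 2 and 1 without rescue replicate 3. In rescue against wild type 6 Kupffer cell markers, 1 endothelial and 0 stellate cell markers were lower and passed with limma, where 1.35% of all genes did (2 of 11 stellate cell markers had an unadjusted p under 0.05). The part of these cells in the values of the 7 genes was not tested.

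Hepatocytes, and the nerve and fat cells in which Ntrk2, Nrg1 or Nrg4 are well known, were followed in the same way. The sum of 12 hepatocyte markers was 142 to 144 in wild type, 143 to 146 in the mutants and 143 to 145 in rescue, and 1 of 12 rose in the mutants (Asgr1, 0.76 ± 0.14). The sum of 9 Schwann cell and neuron markers was 48.1 to 48.6, 48.3 to 50.1 and 47.8 to 49.9, that of 6 adipocyte markers 29.4 to 30.1, 29.9 to 31.5 and 29.9 to 30.7, and that of 5 bile duct markers 26.3 to 27.3, 26.5 to 27.8 and 27.0 to 27.7, with 0 called in any comparison with limma. At an unadjusted p under 0.05 the count was 0 for the nerve and bile duct lists and 1 of 6 for adipocytes in each comparison. Of these 20 markers 13 lay in the dimmest 40% of genes. Among 9 lymphocyte markers, with sums of 48.2 on each wild-type array, 46.7 to 48.2 and 47.2 to 48.5, only Cd3g fell (-0.66 ± 0.15).

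**Figure D4:**
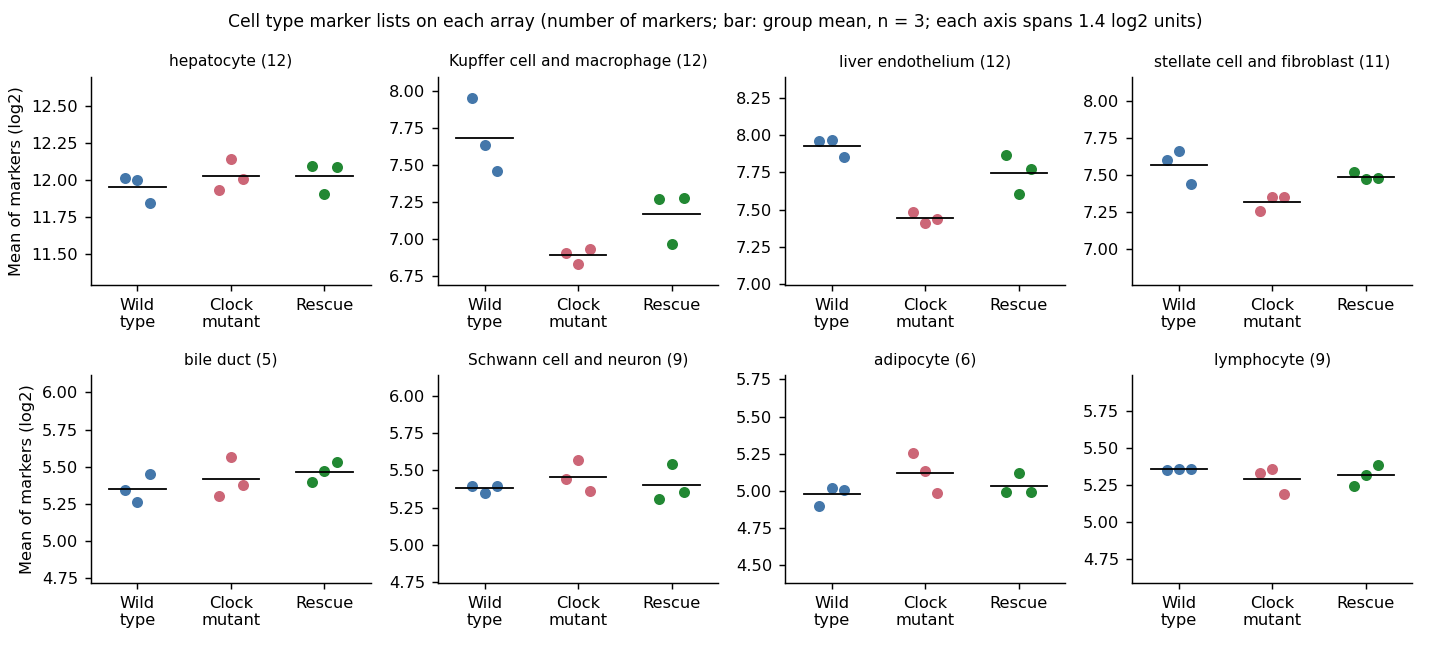
Mean log2 level of each marker list (vertical axes, all spanning 1.4 units; number of markers in each title) on the 9 arrays, grouped as wild type, Clock mutant and rescue, with a bar at the group mean of 3 mice. The Kupffer cell, endothelial and stellate cell lists are lowest in the mutants, and the hepatocyte list overlaps across groups.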

How the data were processed

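Liver RNA of 9 mice was hybridised to 1 Affymetrix array each. The authors deposited RMA log2 expression values per probe set, made in Affymetrix Expression Console per the submitters' processing notes (versions not given in the sources used here). All arrays are brought to 1 distribution by RMA, so a shift common to all genes cannot be seen. Of 35556 probe sets, 21789 carried 1 gene symbol in the platform annotation, 1621 several and 12146 none; 21698 matched the RefSeq table of GRCm38.p6 by Entrez ID, and 0 symbols changed. The brightest single-symbol probe set stood for each of 19938 genes, of which 999 had several.

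One limma model (version 3.58.1, R 4.3.3) over all 9 arrays gave 3 comparisons, with Benjamini-Hochberg adjustment over 19938 genes and a threshold of 0.05 for a call. It was tested on simulated data. The labels describe separate mice, so p-values rest on the spread between mice within the groups, pooled over the 3 groups. For each gene limma draws this spread toward that of all genes (8.47 prior against 6 residual degrees of freedom). Each comparison was repeated under 18 alternative settings, 9 of which leave out 1 array.

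The genes and lists (7 pathway and 8 marker lists, 228 of 248 symbols measured and the others not analysed here) were chosen with earlier results of these data known. Named were the 7 genes and Clock, per list and comparison up to 4 called genes of smallest p (2 for markers), and the 3 genes of highest Pearson r with each of the 7. Nrg1 and Erbb3 promoters were not analysed here.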

Additional observations from a re-analysis of the deposited data

How the results depend on the processing

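Of 372 recomputed differences of the 7 genes, 353 kept direction and side of the threshold, 10 passed where the reported value did not, 9 turned sign and 0 lost a call. Only Erbb4 and, against wild type, Ntrk2 and Nrg4 had a call to lose. Nothing is read from the values of Ntrk2 and Nrg4 against wild type, since wild-type and mutant arrays chose these genes. Those that turned sign were all small. Nrg1 in mutant against wild type was -0.0049 after repeated quantile normalization, -0.026 after median centring and -0.012 with the trend on gene span removed. Egfr in rescue against mutant was -0.0052 with the span trend removed, and -0.10 to 0.13 over the fits that leave out 1 array; Erbb3 there was -0.18 to 0.092. Erbb3 in mutant against wild type passed without the dimmest 40% of genes (0.43, limma adjusted p = 0.0347), after quantile normalization (0.48, 0.0216), with a trended and robust prior (0.43, 0.0312), with array weights (0.48, 0.0213) and on the 6 arrays compared (0.43, 0.0395), and ranged from 0.33 to 0.55 when 1 array was left out. Nrg4 in rescue against mutant passed without the dimmest 40% (0.44, limma adjusted p = 0.0488) and with the trended prior (0.44, 0.0494), so that 2 of 7 genes passed there. Since the mutant arrays took part in choosing Nrg4, nothing is read from these 2 passes of Nrg4. In rescue against wild type 2 of the 7 were past the threshold, Ntrk2 and Nrg4, and 1 without the dimmest 40%, which removes Ntrk2 and Erbb2; wild-type arrays chose both. The cause of these changes between settings was not tested.

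Genes called in rescue against mutant numbered 759, with 1178 without the dimmest 40%, 1210 with the trended prior, 1334 with array weights and 200 to 692 with 1 array left out. In rescue against wild type they numbered 454, with 711, 704 and 233 to 501 for the same filter, prior and left-out arrays, and in mutant against wild type 3068, with 1695 to 3130. Of the pathway lists, 10 genes passed in rescue against mutant, with 20, 17 and 18 under the filter, the prior and the weights, 6 with the span trend removed, 3 on the 6 arrays and 0 to 9 with 1 array left out. In rescue against wild type 4 passed, with 10, 9 and 8 under the filter, the prior and the weights and 2 to 5 with 1 array left out. Higher and lower calls were 1270 and 1798 in mutant against wild type, 610 and 2272 after median centring and 812 and 1824 with the span trend removed. In rescue against mutant they were 520 and 239, with 780 and 126 after centring, 541 and 438 after quantile normalization, 496 and 132 with the span trend removed and 745 and 589 with array weights.

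Whether the replicate numbers pair the mice cannot be settled from these 9 arrays. Over 9 pairs of same-numbered arrays, deviations from the group means correlated at -0.111 to 0.191, and 4 exceeded 0.1. Pairs of arrays with different numbers ran from -0.256 to 0.179. With the replicate number as a block, 3368, 931 and 507 genes passed, against 3068, 759 and 454 without it. Erbb3 then passed in mutant against wild type (0.43, limma adjusted p = 0.0186). In the 250 bases before the start alone, 4 of the 5 promoter matches remained. A different probe set could not be tried, since each of the 7 genes had 1.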
